A study of Mus musculus with 4 samples.

Results

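The genes described here are 9 genes of 2 families of secreted signals that keep neurons alive, with the receptors of the first: the neurotrophins Bdnf, Ntf3 and Ntf5, the neurotrophin receptors Ngfr, Ntrk2 and Ntrk3, and the neuropoietic cytokines Lif, Cntf and Ctf1. They were chosen by name, and all probe sets that the platform annotation gives to them were read. Of the 9 genes, 7 had at least 1 probe set of their own, out of 18193 genes named on the array. These 7 genes had 25 of the 34945 probe sets that carry a single gene symbol. Cntf was named only on a probe set shared with Gm44505 and Zfp91, and no probe set named Ntf3 was analysed here.

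The values come from Affymetrix expression arrays of muscle from BALB/c mouse embryos at E13.5, with 1 array for each of 4 groups. The groups were limb muscle of MyoD-/- embryos, limb muscle of wild-type (WT) embryos, back muscle of Myf5-/- embryos and back muscle of WT embryos. By its title, the series asks what part skeletal muscle plays while motor neurons develop. The transcription factors MyoD, made from the gene Myod1, and Myf5 start the muscle programme. The labels give both mutants as null in the BALB/c background, with no word on the allele or on how many embryos went into an array. With 1 array per group no value has a replicate error and no test over samples was possible. Every ratio below is a difference between single arrays.

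Neurotrophins are secreted as precursors, cut to a mature form and bound by the Trk receptor kinases, each with its own preferred ligand, and by the receptor Ngfr (p75), which binds all of them. In embryonic muscle they are known as target-derived factors: neurons whose axons reach the muscle take them up and depend on them during the period of naturally occurring cell death. Lif, Cntf and Ctf1 signal through the shared receptor chain Il6st (gp130) together with Lifr, and support motor neurons in the mouse.

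Signals were rescaled so that each array had a 2% trimmed mean of 500. A signal under 100 was treated as having no level of its own and was set to this floor before ratios were taken, so a ratio against such an array is given as "at least N-fold". A gene was counted as different when the log2 ratio reached 2-fold and the brighter array reached 200. A gene with several probe sets was represented by the one with the highest mean log2 signal after the floor. The log2 ratio varied between probe sets of a gene by a median SD of 0.40 in the limb pair, 0.38 in the back pair and 0.40 in WT limb against WT back. This spread covers probe noise, not embryos.

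Letters upstream of the annotated transcription starts are shown for Lif and Bdnf, because these genes were among those that differed at least 2-fold and MyoD and Myf5 bind the E-box, whose letters are CANNTG. The windows are the 250 bases before a start, from RefSeq on GRCm38.p6, read 5′ to 3′ on the strand of the gene. Capitals mark CANNTG and the letters TTCNNNGAA, the form bound by STAT factors, which act downstream of Lif. Bdnf has 7 annotated starts in this table. The most upstream and the fifth are shown, the fifth because it is the one Bdnf window with CAGCTG, the E-box form that the MyoD family prefers.
Lif, chr11:4257318-4257567, + strand: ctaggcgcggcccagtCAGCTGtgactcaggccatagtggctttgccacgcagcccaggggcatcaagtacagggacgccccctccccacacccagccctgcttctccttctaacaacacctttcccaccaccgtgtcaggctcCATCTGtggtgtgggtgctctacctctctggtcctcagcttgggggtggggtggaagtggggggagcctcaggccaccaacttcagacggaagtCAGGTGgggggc
Bdnf, the first start, chr2:109674450-109674699, + strand: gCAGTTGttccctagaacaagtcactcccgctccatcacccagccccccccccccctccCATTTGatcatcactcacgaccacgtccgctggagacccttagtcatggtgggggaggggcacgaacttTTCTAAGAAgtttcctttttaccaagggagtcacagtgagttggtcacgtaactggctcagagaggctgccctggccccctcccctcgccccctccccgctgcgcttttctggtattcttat
Bdnf, the fifth start, chr2:109694159-109694408, + strand: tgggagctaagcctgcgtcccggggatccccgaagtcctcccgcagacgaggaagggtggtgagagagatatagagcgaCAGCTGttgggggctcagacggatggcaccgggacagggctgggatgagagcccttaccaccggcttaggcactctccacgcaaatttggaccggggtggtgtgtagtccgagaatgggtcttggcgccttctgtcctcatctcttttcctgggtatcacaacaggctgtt

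The Lif window held 3 matches to CANNTG, of which 1, beginning 234 bases before the start, was CAGCTG. The fifth Bdnf window held 1 match, also CAGCTG, beginning 171 bases before the start. All searched forms read the same on both strands. Matches to CANNTG were found in 66.2% of the 32851 windows of all genes and CAGCTG, which is one of its forms, in 13.0%. Of the 14 windows of the genes described here, 13 held CANNTG and 3 held CAGCTG. The third CAGCTG lay in the Ngfr window, beginning 25 bases before the start, and Ngfr was not 2-fold different in any comparison. TTCNNNGAA stood in the first Bdnf window and in 7.02% of all windows, and TGACGTCA, the site of CREB, was in none of the windows of these genes and in 1.55% of all. Windows were found for 7 of the 9 genes, and not for Ntf5 and Ntrk3. A match is a description of letters and shows no binding.

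The arrays were checked on the targeted genes first. Myod1 had a signal of 688 in MyoD-/- limb and 1438 in WT limb (log2 ratio -1.06). Myf5 was 583 in the array labelled Myf5-/- back and 508 in WT back (0.20), so it was not lower where the label says it is deleted. The sources used here do not say where the probes lie relative to the deleted part, and this array is called by its label throughout. Myf5 was 1019 in MyoD-/- limb and 506 in WT limb (1.01). All 18 differentiated muscle markers reached 100 in every array, and their summed signal was 64382 in MyoD-/- limb, 97931 in WT limb, 122495 in the array labelled Myf5-/- back and 193891 in WT back. The samples also held other tissues, since all 12 cartilage markers reached 100 in both limb arrays and in WT back, and 9 of 12 did in the array labelled Myf5-/- back. Their summed signal was 6455 in the array labelled Myf5-/- back and 24315 in WT back, with 8 of 12 at least 2-fold lower and a median log2 ratio of -1.85. In the limb pair it was 23714 in MyoD-/- limb and 20325 in WT limb, with a median of 0.22. The part of this difference in the values of the back pair given below was not tested. Fewer cells of a type and less RNA per cell cannot be told apart in such samples.

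The 4 arrays also differed as a whole. The share of probe sets at 100 or more was 56.0% in MyoD-/- limb, 61.4% in WT limb, 63.6% in the array labelled Myf5-/- back and 57.9% in WT back. The 3 prime over 5 prime signal ratio of Gapdh, a reading of RNA and label quality, was 8.06, 12.2, 9.46 and 6.45 in the same order. That of Actb was 3.86, 6.88, 4.28 and 3.20. In every array the 3 prime signal of both thus exceeded the 5 prime signal at least 3.20-fold. All these readings were lower in MyoD-/- limb than in WT limb and higher in the array labelled Myf5-/- back than in WT back. Of the genes counted as different, 30.7% were higher in the limb pair, 68.9% in the back pair and 60.2% in WT limb against WT back. This split moved to 45.5%, 50.3% and 53.3% under quantile normalization and to 58.4%, 37.7% and 46.4% after loess.

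Among the neurotrophins, Ntf5 and Bdnf both had more signal in the array labelled Myf5-/- back than in WT back. Ntf5 encodes neurotrophin 4, a ligand of Ntrk2 that muscle makes. Its only probe set had a signal of 480 in MyoD-/- limb, 636 in WT limb, 412 in the array labelled Myf5-/- back and 198 in WT back. Both limb arrays were above both back arrays, and WT back was the lowest of the 4. The log2 ratio was -0.41 in the limb pair, hardly beyond the 0.40 spread between probe sets, and 1.06 in the back pair. WT limb over WT back gave 1.68. In the back pair Ntf5 passed 2-fold by little, with 0.94 under quantile normalization, 0.92 after loess and 0.78 with a pseudocount. It stayed past 2-fold there in 5 of the 8 alternatives, most of which could hardly change it. WT limb over WT back was 1.65 under quantile normalization, 1.66 after loess, 1.67 with a floor of 200 and 1.30 with a pseudocount, all past 2-fold. The remaining alternatives could hardly change the Ntf5 ratios. Its 1 probe set was above 100 in every array and has no shared-probe name, and the scaling factors were nearly equal.

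Bdnf, the brain-derived neurotrophic factor and the other ligand of Ntrk2, had signals near the floor. Its signal was 155 in MyoD-/- limb, 133 in WT limb, 241 in the array labelled Myf5-/- back and 36.3 in WT back. WT back was the only array under the floor, and the 2 limb arrays differed by less than the spread between probe sets (0.22). Bdnf was at least 2.41-fold higher in the array labelled Myf5-/- back than in WT back. This stayed past 2-fold in 4 of the 6 alternatives that gave a value. Of these 4, leaving out the rescaling and a floor of 50 could hardly have lowered it. It was 0.27 on the log2 scale with a floor of 200 and just short of 2-fold after loess. WT limb was at least 1.33-fold above WT back, which did not reach the count. The second Bdnf probe set stayed under 100 in all 4 arrays, at 49.7, 80.1, 9.35 and 6.80 in the order above, so the Bdnf result rests on 1 probe set. The names of both probe sets mark probes that several transcripts can share.

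**Figure D1:**
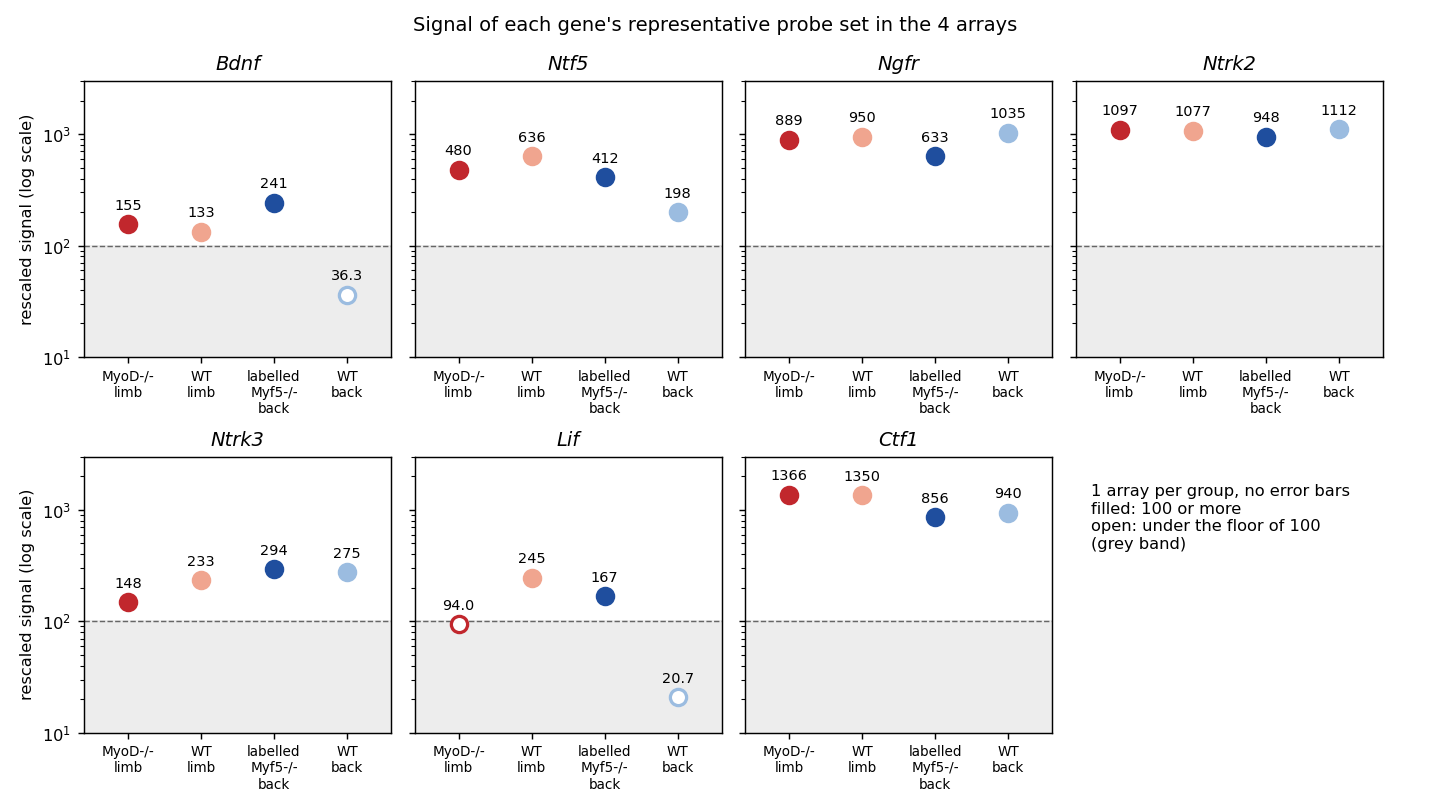
Rescaled signal (vertical axis, log scale) of the representative probe set of 7 genes in MyoD-/- limb, WT limb, the array labelled Myf5-/- back and WT back, 1 point per array. Open points under the dashed line are below the floor of 100: Bdnf in WT back at 36.3 and Lif in MyoD-/- limb at 94.0 and in WT back at 20.7.

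The receptors showed smaller differences in their representative probe sets, none of them 2-fold. Ngfr, the p75 receptor found on Schwann cells, on neurons and on muscle precursors, had a signal of 889 in MyoD-/- limb, 950 in WT limb, 633 in the array labelled Myf5-/- back and 1035 in WT back. The array labelled Myf5-/- back was the low one and the other 3 lay close together. Its log2 ratio was -0.71 in the back pair, beyond the 0.38 spread between probe sets, and -0.10 in the limb pair. The other 2 Ngfr probe sets stayed under 100 in every array. Of the tissues whose cells carry Ngfr, the 10 Schwann cell markers had a summed signal of 5213 in the array labelled Myf5-/- back and 6241 in WT back, with 2 of the 10 at least 2-fold higher, 1 lower and a median log2 ratio of -0.20. Erbb3, the brightest of these markers, was 2263 and 3353 in the same order, so the lower sum rests on this 1 gene. Of the 10, 4 had a log2 ratio above 0 and 6 below. At 100 or more were 9 of the 10 in the array labelled Myf5-/- back and 10 of 10 in WT back. Their part in the Ngfr value, and that of the cartilage difference given above, was not tested.

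Ntrk2, the kinase receptor (TrkB) of Bdnf and of the Ntf5 product, was even across the 4 arrays in its representative probe set. That probe set had 1097 in MyoD-/- limb, 1077 in WT limb, 948 in the array labelled Myf5-/- back and 1112 in WT back. The log2 ratios were 0.03 in the limb pair, -0.23 in the back pair and -0.05 in WT limb over WT back, all within the spread between probe sets. Of 8 Ntrk2 probe sets, 4 reached 100 in some array. A second one separated the sites and not the genotypes: it had 146 in MyoD-/- limb and 144 in WT limb, and 271 in the array labelled Myf5-/- back and 268 in WT back. WT limb over WT back was -0.90 there. The other 2 were dim and differed in the limb pair, at 43.6 in MyoD-/- limb against 134 in WT limb and at 52.3 against 195 in the same order. These are at least 1.34-fold and at least 1.95-fold lower in MyoD-/- limb. Ntrk2 is made in a full-length form and in shorter forms that lack the kinase, and the sources used here do not say which form a probe set reads.

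Ntrk3 (TrkC), the kinase receptor of neurotrophin 3 on the sensory neurons that innervate muscle spindles, had its lowest value in MyoD-/- limb. The representative of its 8 probe sets had 148 in MyoD-/- limb, 233 in WT limb, 294 in the array labelled Myf5-/- back and 275 in WT back. Both back arrays were above both limb arrays in this probe set, and the back arrays differed by less than the spread between probe sets (0.10). In WT limb over WT back the 5 probe sets that could be read went both ways, between -0.48 and 0.75. The log2 ratio of the limb pair was -0.65, and it was -0.29 after loess. Another probe set was 76.8 in MyoD-/- limb and 220 in WT limb, at least 2.20-fold lower, and 1 more was 20.9 in MyoD-/- limb and 169 in WT limb, at least 1.69-fold lower. Yet another was level in the limb pair, at 102 in both arrays. In the back pair the 5 probe sets that could be read went both ways, between -0.56 and 0.28. Only 1 of the 8 reached 100 in all 4 arrays.

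**Figure D2:**
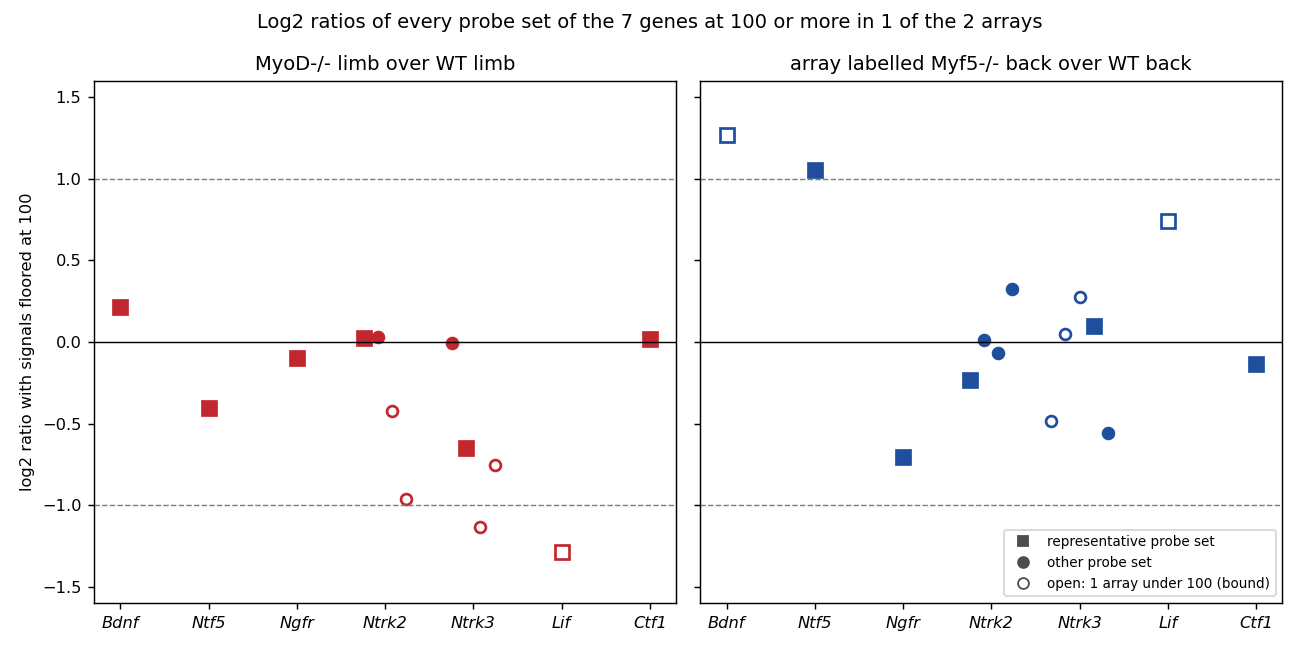
Log2 ratio with signals floored at 100 (vertical axis) of every probe set of the 7 genes at 100 or more in 1 of the 2 arrays, for MyoD-/- limb over WT limb (left) and the array labelled Myf5-/- back over WT back (right). Squares are the representative probe sets, open symbols are bounds against an array under 100, and the dashed lines mark 2-fold. Ntrk2 and Ntrk3 probe sets spread from 0.03 to -1.14 in the limb pair.

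Of the cytokines, Lif differed between arrays and Ctf1 followed the site. Lif, the leukemia inhibitory factor, had a signal of 94.0 in MyoD-/- limb, 245 in WT limb, 167 in the array labelled Myf5-/- back and 20.7 in WT back. MyoD-/- limb and WT back were under the floor, WT limb was the highest and the array labelled Myf5-/- back lay between. Lif was at least 2.45-fold lower in MyoD-/- limb than in WT limb. It was at least 1.67-fold higher in the array labelled Myf5-/- back than in WT back. This was not counted, since the floored ratio was under 2-fold and the brighter array did not reach 200. WT limb was at least 2.45-fold above WT back. The limb ratio was -0.89 on the log2 scale after loess, short of 2-fold. The second Lif probe set stayed under 100 in all arrays, at 81.4 in the array labelled Myf5-/- back and at 13.9 or less in the others. Within each pair, Lif and Ntf5 ran the same way as the share of probe sets at 100 or more and the Gapdh ratio given above, whose part in these values was not tested.

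Ctf1, cardiotrophin 1, a cytokine that embryonic muscle makes and that supports motor neurons in the mouse, was bright and level within each site. It had 1366 in MyoD-/- limb, 1350 in WT limb, 856 in the array labelled Myf5-/- back and 940 in WT back. Both limb arrays were above both back arrays. The log2 ratio was 0.02 in the limb pair and -0.13 in the back pair, within the spread between probe sets, and 0.52 in WT limb over WT back, beyond it. The probe set that names Cntf together with Gm44505 and Zfp91 had 184 in MyoD-/- limb, 237 in WT limb, 277 in the array labelled Myf5-/- back and 286 in WT back. These values cannot be assigned to Cntf, the ciliary neurotrophic factor known from Schwann cells.

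Counted over the 7 genes, 1 was at least 2-fold lower in MyoD-/- limb (Lif) and 0 were higher, where 5.19% of all measured genes were lower and 2.3% higher. In the back pair 2 of 7 were at least 2-fold higher (Ntf5 and Bdnf) and 0 lower, where 5.5% of all measured genes were higher and 2.48% lower. In WT limb over WT back 2 of 7 were higher (Ntf5 and Lif) and 0 lower, where 5.3% of all measured genes were higher and 3.5% lower. With 7 genes, each count rests on 1 or 2 of them. The median log2 ratio of the 7 was -0.10, 0.10 and 0.41 in these comparisons, and that of all measured genes was -0.04, 0.05 and 0.04. WT limb and WT back each stand in 2 of the 3 comparisons, so they are not independent of each other. By site, 2 of the 7 representative probe sets had both limb arrays above both back arrays (Ntf5 and Ctf1) and 1 had them below (Ntrk3). Of all measured genes, 17.1% and 18.3% did. A share that differs from these by 1 gene is not a result about the set.

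The partners of these ligands and receptors were read from lists of proteins that cut, bind or relay them. Of the neurotrophin partners, 22 of 28 were measured in each comparison, with 0 at least 2-fold higher and 1 lower in the limb pair, and 4 higher and 0 lower in the back pair. Their median log2 ratio was 0.10 in the limb pair, 0.07 in the back pair and -0.20 in WT limb over WT back, beside the medians of all genes given above. Of all measured genes, 2.3% were at least 2-fold higher and 5.19% lower in the limb pair. In the back pair 5.5% were higher and 2.48% lower. Lingo1, a coreceptor of Ngfr in the Nogo receptor complex, had 156 in MyoD-/- limb, 356 in WT limb, 394 in the array labelled Myf5-/- back and 169 in WT back, with log2 ratios of -1.19 and 1.22. A second Lingo1 probe set gave -0.76 and 0.90. Rtn4r, the Nogo receptor, had 176, 324, 235 and 92.9 in the same order of arrays, and was at least 2.35-fold higher in the array labelled Myf5-/- back than in WT back. Nradd, a membrane protein related to p75, had 148, 237, 272 and 112, with log2 ratios of -0.68 and 1.28. Each of these was lower in MyoD-/- limb than in WT limb and higher in the array labelled Myf5-/- back than in WT back, while Ngfr itself was -0.71 in the back pair. The same direction within each pair held for the share of probe sets at 100 or more and for the Gapdh ratio given above, and the part of those in these values was not tested.

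Sorcs1, a sorting receptor of the sortilin family, was also counted higher, at 244 in the array labelled Myf5-/- back and 35.9 in WT back, at least 2.44-fold. Its other 2 probe sets did not reach that size, with 0.13 in the one that could be read. Sort1, sortilin, which binds neurotrophin precursors together with Ngfr, was level, at 1427 in MyoD-/- limb, 1404 in WT limb, 1511 in the array labelled Myf5-/- back and 1675 in WT back. Furin, the protease that cuts neurotrophin precursors, is named here after its values were seen. It was 1105 in MyoD-/- limb and 2031 in WT limb (-0.88), and 1137 in the array labelled Myf5-/- back and 1076 in WT back (0.08). WT limb was the high array for Furin and the other 3 lay together. In WT limb over WT back 3 of 22 partners were higher (Lingo1, Rtn4r and Nradd) and 2 lower, both of these named after their values were seen. They were the protease gene Pcsk6 at 537 against 1095 and the adaptor gene Sh2b2 at under 100 against 230. The second Sh2b2 probe set was under 100 in every array. Of all measured genes, 5.3% were higher and 3.5% lower in WT limb over WT back.

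Of the neuropoietic cytokine partners, 18 of 25 were measured in each comparison, with 0 at least 2-fold different in the limb pair, and 1 higher and 1 lower in the back pair. Their median log2 ratio was -0.11 in the limb pair, 0.10 in the back pair and -0.10 in WT limb over WT back. The shares of all measured genes given above stand beside these counts too. Il11, a cytokine of the same family, was 212 in the array labelled Myf5-/- back and 34.3 in WT back, at least 2.12-fold higher. In the limb pair it was 19.8 in MyoD-/- limb and 162 in WT limb, at least 1.62-fold lower. Il6ra, the receptor of interleukin 6, was 73.8 in the array labelled Myf5-/- back and 292 in WT back, at least 2.92-fold lower. This rests on 1 probe set with a shared-probe name, and the second Il6ra probe set was under 100 in every array. The shared receptor chain Il6st was level within each site, at 1114 in MyoD-/- limb, 1176 in WT limb, 1602 in the array labelled Myf5-/- back and 1534 in WT back. Lifr, its partner for Lif and Ctf1, was 1267 in MyoD-/- limb and 934 in WT limb (0.44), and 789 in the array labelled Myf5-/- back and 1373 in WT back (-0.80). Lifr thus ran opposite to Lif in both pairs, and neither Lifr ratio reached 2-fold.

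Cntfr, the binding chain for Cntf and its relatives, followed the site, at 299 in MyoD-/- limb, 277 in WT limb, 630 in the array labelled Myf5-/- back and 527 in WT back. WT limb over WT back was -0.93. Clcf1, a ligand of Cntfr, was 155 in MyoD-/- limb, 279 in WT limb, 125 in the array labelled Myf5-/- back and 184 in WT back, with opposite signs among its 3 probe sets in the back pair. Of the other 2, 1 was 230 in the array labelled Myf5-/- back and 80.9 in WT back, at least 2.30-fold higher. The representative probe set of Osmr, the receptor chain of oncostatin M, reached 100 in WT limb alone, at 180. In WT limb over WT back Socs2, a feedback inhibitor of cytokine signalling, was 707 against 353 and was counted higher, with 0.45 in another bright probe set and -0.52 in a dim one, and Il6ra was counted lower at under 100 against 292. Of 16 immediate response genes, 1 was at least 2-fold different in each pair: Egr3 was higher in MyoD-/- limb, at 293 against 120 in WT limb, and in the array labelled Myf5-/- back, at 351 against under 100 in WT back. The second Egr3 probe set was under 100 in both limb arrays and gave at least 1.21-fold in the back pair.

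**Figure D3:**
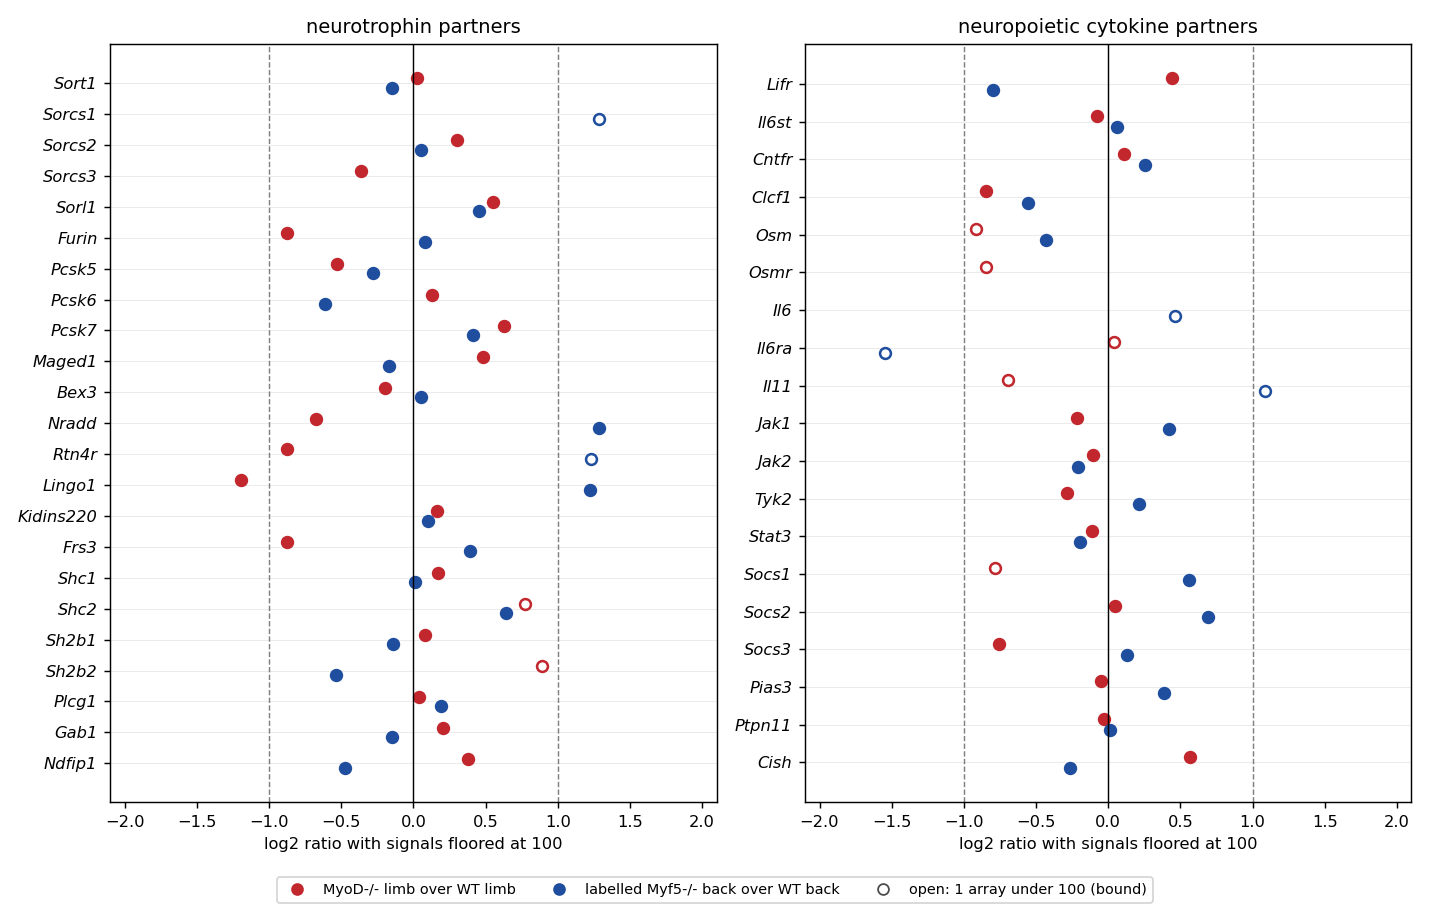
Log2 ratio with signals floored at 100 (horizontal axis) of the neurotrophin partners (left) and the neuropoietic cytokine partners (right), in MyoD-/- limb over WT limb (red) and the array labelled Myf5-/- back over WT back (blue). Open points are bounds against an array under 100 and the dashed lines mark 2-fold. Lingo1 lies at -1.19 and 1.22, and Il6st lies at -0.08 and 0.06.

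Markers of the cells that could carry these genes were read beside them. The 18 nerve fibre and neuron markers had a summed signal of 2610 in MyoD-/- limb, 2905 in WT limb, 5015 in the array labelled Myf5-/- back and 5162 in WT back, with 11, 13, 15 and 13 of them at 100 or more. In WT limb over WT back 6 of the 16 that could be read were at least 2-fold lower and 1 higher. In the same comparison the representative probe sets of Cntfr, Ngfr and Il6st gave -0.93, -0.12 and -0.38. Another Il6st probe set went the other way, at 0.26, and a dim one gave -0.37. The Ntrk2 probe sets lay between -0.90 and 0.89 and the Ntrk3 probe sets between -0.48 and 0.75. The neuronal markers Snap25 and Slc18a3 were under 100 in all 4 arrays. All 9 skin and epithelium markers were at 100 or more in every array. They summed to 17282 in MyoD-/- limb, 15370 in WT limb, 11854 in the array labelled Myf5-/- back and 9306 in WT back. In WT limb over WT back 8 of the 9 were above 0 and 1 below, with a median log2 ratio of 0.47. Only Krt5 reached 2-fold there, at 5685 against 2454. Krt8, Krt18 and Cdh1 did not have both limb arrays above both back arrays. Muscle progenitor markers, 8 in all, summed to 5816 in MyoD-/- limb, 4784 in WT limb, 5636 in the array labelled Myf5-/- back and 6636 in WT back. These sums include both targeted genes, and Myod1 alone was 688, 1438, 2333 and 2870 in the same order. In the back pair 4 of the 8 were above 0 and 4 below. Only Pax7 was at least 2-fold different there, at 261 in the array labelled Myf5-/- back and 681 in WT back (-1.38). Of the lists of cell markers read, the cartilage list, given above, had the median farthest from 0 in the back pair. The part of any of these cell types in the values above was not tested.

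**Figure D4:**
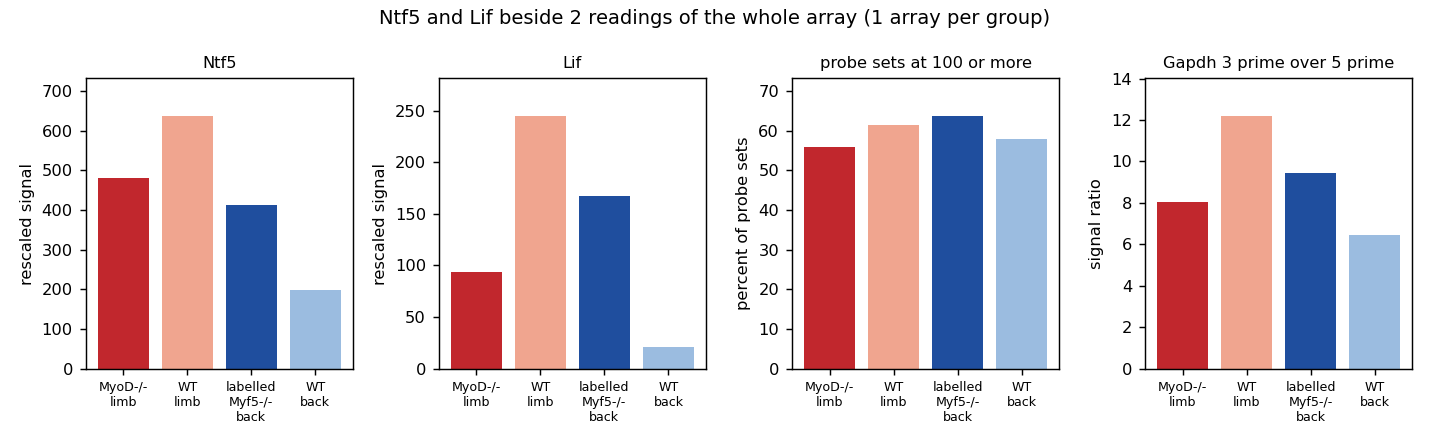
Rescaled signal of Ntf5 and of Lif, percent of probe sets at 100 or more and the Gapdh 3 prime over 5 prime signal ratio (vertical axes, from 0) in MyoD-/- limb, WT limb, the array labelled Myf5-/- back and WT back, 1 bar per array. In all 4 panels MyoD-/- limb lies below WT limb and the array labelled Myf5-/- back lies above WT back.

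The genes whose pattern over the 4 arrays was nearest to each 2-fold different gene were found by the root mean squared difference of floored log2 signals, each gene centred on its own mean, among 15809 genes. For Ntf5 they were Prpf19 (0.03), Pkp1 (0.08) and A230070E04Rik (0.09). For Bdnf they were Pcyt1b (0.06), Slfnl1 (0.06) and BC052688 (0.07). For Lif they were Acaa1b (0.0051), Kcnj9 (0.03) and Slc35g3 (0.03), all of them under the floor in the same 2 arrays as Lif, so that only 2 signals carry the likeness.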

How the data were processed

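Total RNA of the 4 groups was extracted with Trizol and 6 µg was used for biotin-labelled cRNA, per the labels' protocols. The authors deposited linear intensities, which MAS5 computed from the probes of each probe set, according to the submitters' processing notes. The MAS5 version and its scaling settings are not given in these sources, and no detection calls were used.

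A factor per array brought its 2% trimmed mean, controls left out, to 500. Values below 100 were then replaced by 100 before the log2 ratio (Python 3.11.15, statsmodels 0.14.6 for loess). Probe sets with 1 gene symbol, 34945 of 45101, were named through the platform annotation, with 0 symbols changed through RefSeq. The 932 with several symbols named no gene. Steps were tested on simulated data. Precision is limited by having 1 array per group.

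The genes, lists and comparisons were chosen with earlier results of these data known. Named are the 9 genes with all their probe sets, their binding partners, up to 4 members of each partner list that reached 2-fold, chosen by size, and the 3 nearest patterns of each gene counted in a comparison. Furin, Pcsk6 and Sh2b2 were named beyond this rule, after their values were seen. Lists cover neurotrophin and cytokine partners, immediate response genes, and markers of nerve, Schwann cells, muscle, muscle progenitors, cartilage, connective tissue, vessels, skin, macrophages and red blood cells. Tried beside this, as 8 alternatives, were signals without rescaling, quantile normalization, loess with a span of 0.3, floors of 50 and 200, a pseudocount of 100, the median over probe sets, and dropping shared-probe sets (names with _a, _s or _x).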

Additional observations from a re-analysis of the deposited data

Results flagged for a closer look

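Lif and Ntf5 stood out because each moved one way in the limb pair and the opposite way in the back pair, by more than the median spread between probe sets in both. For Lif the log2 ratio was -1.29 in MyoD-/- limb over WT limb and 0.74 in the array labelled Myf5-/- back over WT back, a difference of -2.03 between the pairs. Both Lif ratios are bounds, since 1 array of each pair was under 100. For Ntf5 the ratios were -0.41 and 1.06, a difference of -1.46. With 1 array per group the difference was not tested. It kept its sign under all alternatives that gave a value, at -1.44 to -3.12 for Lif and -1.12 to -1.46 for Ntf5. Some of these alternatives could hardly change it, among them leaving out the rescaling and dropping shared-probe sets.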

How the results depend on the processing

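Of 152 values of single genes under the 8 alternatives, 139 moved by less than the median spread between probe sets and 13 moved by more. Many of the 139 could hardly have moved, among them all 21 without rescaling, since the scaling factors were nearly equal. The 18 without shared-probe probe sets could not move either, because the representative probe sets of all genes but Bdnf stayed in place. A floor of 50 cannot change a ratio between arrays above the main floor. The median over probe sets cannot change a gene with 1 probe set. Of the called values, 0 changed sign. Uncalled ratios of Bdnf, Ntrk2, Ntrk3 and Ctf1 near 0 did change sign under some alternatives. The count of 1 gene in the limb pair became 0 after loess, with a floor of 200, with a pseudocount and as a median over probe sets. The count of 2 in the back pair became 0 after loess and 1 under quantile normalization, with a floor of 200, with a pseudocount, as a median over probe sets and without shared-probe probe sets, where Bdnf has no value. The count of 2 in WT limb over WT back became 1 with a floor of 200 and as a median over probe sets. The bounds of Bdnf and Lif move with the floor by construction: Bdnf in the back pair was 0.27 with a floor of 200 and 2.27 with a floor of 50, and Lif in the limb pair -0.29 and -1.38. Over all genes the counts of 1087, 1172 and 1285 became 293, 274 and 504 with a floor of 200 and 495, 602 and 681 with a pseudocount. Partner counts moved likewise: the 4 neurotrophin partners of the back pair became 2 after loess, 1 with a pseudocount and 0 with a floor of 200. No paired analysis was possible because each group has 1 array. Signals near the floor limit Bdnf, Lif and most Ntrk2 and Ntrk3 probe sets.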

Other observations

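Lists not described above gave these values. Connective tissue and tendon markers, 12 genes, had a median log2 ratio of -0.39 in MyoD-/- limb over WT limb and 0.04 in the array labelled Myf5-/- back over WT back. The median of the 12 vessel markers was -0.05 and -0.04 in these comparisons over the 10 and 11 at 100 or more in 1 array of the pair. The 9 macrophage markers summed to 4287 in MyoD-/- limb, 4961 in WT limb, 8026 in the array labelled Myf5-/- back and 8502 in WT back. The 6 red blood cell markers on the array summed to 7175, 7598, 7644 and 7257 in the same order.

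Prpf19, the nearest pattern to Ntf5, has 5 probe sets, of which 4 reached 100, and WT back was the lowest array in each of these 4, with 17035, 23754, 14524 and 7090 for its brightest in MyoD-/- limb, WT limb, the array labelled Myf5-/- back and WT back.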
